A study of Mus musculus with 20 samples.

Results

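Endothelial cells of vehicle-treated ears were compared between control mice and mice that overexpress the intracellular domain of Notch1 (NICD) in endothelium, in 10 of the 20 arrays of the study. The members were the arrays whose titles give vehicle treatment: 4 NICD arrays and 6 control arrays. The NICD mice carry Pdgfb-CreERT2 and R26-NICD per the genotype label, a tamoxifen-inducible Cre recombinase driven by the Pdgfb promoter together with an NICD transgene at the Rosa26 locus. The growth protocol instead names RosaNICD/NICD mice combined with CDH5-iCre, so which promoter drove the Cre cannot be told from the labels. The controls are labelled only as control, and whether they carried the Cre or the transgene is not given in the sources used here, nor are age, sex and strain. All mice received 5 daily tamoxifen injections, a sensitisation on the skin with the hapten DNFB (dinitrofluorobenzene), and an ear challenge on day 5, which was vehicle for the 10 arrays compared here. Ears were taken after 24 hours and digested with collagenase, and CD31+CD45-Ter119- cells were sorted, a gate for endothelial cells that removes leukocytes and red cells. In NICD replicate 4 the title gives vehicle and the description gives DNFB, and the array was kept by its title. On the first principal component of all 20 arrays it lay at -40.4, inside the -42.6 to -38.1 of the NICD vehicle arrays and away from the 32.1 to 34.0 of the NICD DNFB arrays.

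Notch receptors are cut after they bind a ligand of the Delta-like or Jagged families on a neighbouring cell. The freed intracellular domain enters the nucleus, binds the DNA-binding protein RBPJ and a Mastermind coactivator, and switches on genes such as those of the Hes and Hey repressor families. In blood vessels the pathway is known for holding back sprouting, for arterial identity and for quiescence of the vessel lining. Expressing the intracellular domain alone turns the pathway on without ligand.

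Values are log2 expression per probe set minus the array's own median, so that 0 is the array median and a difference of 1 is 2-fold. Differences are NICD minus control with ± 1 SE, and a gene passed where the limma p-value adjusted over 13318 probe sets (12708 genes) was under 0.05. Correlations between arrays ran from 0.958 to 0.976 within the control group, from 0.970 to 0.977 within the NICD group and from 0.943 to 0.963 between them. The array medians lay between 3.87 and 3.98 in control and between 3.57 and 3.62 in NICD arrays, and the lowest value of each array between 0.456 and 0.590 against 1.18 to 1.28, so the groups differ in the scale of the deposited values. Xist, the RNA that silences an X chromosome in female cells, ran from -1.65 to -0.82 in control and from 5.35 to 5.47 in NICD arrays, and the Y-linked Eif2s3y from 2.16 to 3.25 against -1.49 to -0.79. Genotype, sex and the scale of the deposited values therefore cannot be told apart in any result here, and genes of the X and Y chromosomes were left out. Nothing in the labels says how the animals were bred or pooled, so p-values measure only the spread between these arrays.

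NICD ears had 1462 probe sets higher and 840 lower, or 11% and 6.31% of those tested. At a size of at least 2-fold, 144 were higher and 74 lower (1.08% and 0.556%). All 4 NICD arrays lay above all 6 control arrays in 10.3% of the probe sets and below them in 4.92%. How the calls fell between the 2 directions depended on the scaling of the arrays. With median centring 63.5% of the calls were higher in NICD, with quantile normalization 42.2% (827 higher and 1135 lower, or 6.21% and 8.52%), and with the deposited values uncentred 8.10% (388 higher and 4404 lower). Leaving the values uncentred moved the median of all probe sets from 0.050 to -0.28. Under both median centring and quantile normalization 817 probe sets were higher and 770 lower (6.13% and 5.78%). With median centring the median difference went from -0.12 among probe sets below the array median to 0.22 among those more than 6 units above it, whereas with quantile normalization no level class had a median outside -0.16 to -0.015. The calls with centring followed the level too. Of the 406 probe sets more than 6 units above the median, 121 were higher and 3 lower. Between 4 and 5 units 275 of 1335 were higher and 36 lower, and between 0 and 1 unit 151 of 2996 were higher and 328 lower. Highly expressed genes therefore have a higher baseline under centring, and 11% is too low a baseline for lists of such genes. In the same way 6.31% is too low a baseline for falls among genes near or below the array median. Below the median 99 of 627 were lower. The shares of gene lists below are read against 11% higher and 6.31% lower with median centring, and 6.21% and 8.52% with quantile normalization.

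**Figure D1:**
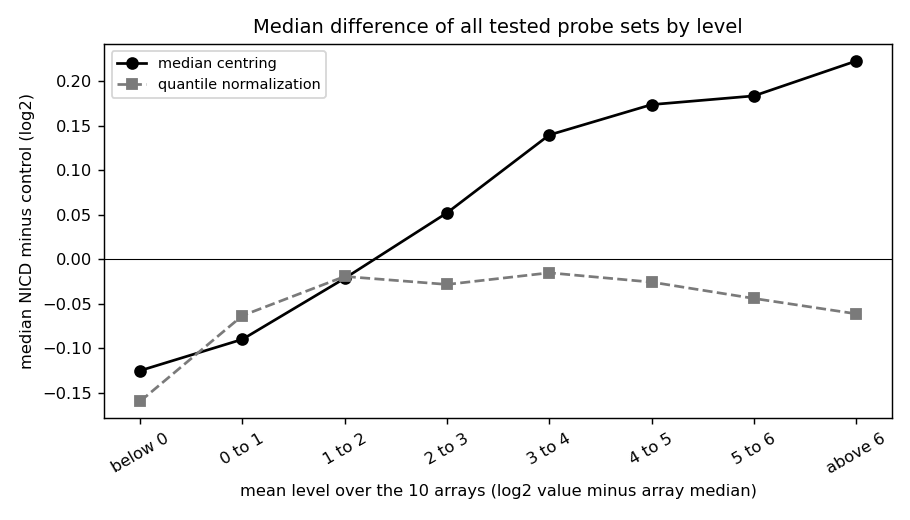
Median difference between NICD and control vehicle arrays (y axis, log2) of all 13318 tested probe sets in 8 classes of mean level (x axis, log2 value minus array median). The circles (median centring) climb from -0.12 to 0.22 with level, and the squares (quantile normalization) stay between -0.16 and -0.015.

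The transcript of Notch1, the receptor whose intracellular part the transgene encodes, did not pass the test. Its level was 6.21, 5.91, 6.16 and 6.22 in the 4 NICD arrays and ran from 5.76 through a median of 5.89 to 6.04 in the control arrays. The groups overlapped, with NICD replicate 2 inside the control range. The difference was 0.22 ± 0.11 (adjusted p 0.167), and it was -0.032 with quantile normalization and -0.10 uncentred. Which part of the transcript the probe set reads is not given here, so this level is no check of the transgene.

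Of the 11 Notch receptors and ligands on the list, 9 passed the filter on low values (Dll3 and Dner did not), and 1 rose (11.1% against 11% of all probe sets). Notch4, the receptor largely restricted to endothelium, was at 4.87, 4.68, 4.86 and 4.81 in NICD against 3.95 to 4.62 in control arrays (median 4.17), with no overlap. It rose by 0.55 ± 0.15 (adjusted p 0.0250), a call that was lost with quantile normalization (0.36, adjusted p 0.106) and without NICD replicate 1, 3 or 4 (adjusted p up to 0.0632). The ligand Dll4, which endothelial tip cells and arteries express, was among the most abundant Notch genes on the arrays at 6.44 to 6.80 in NICD and 6.27 to 6.85 in control arrays, and its difference was 0.090 ± 0.13 (adjusted p 0.671). The ligand Jag1 differed by -0.026 ± 0.11, Jag2 by -0.15 ± 0.10, Dll1 by -0.32 ± 0.16, and the receptors Notch2 and Notch3 by 0.078 ± 0.14 and -0.0087 ± 0.11. None of those 6 genes passed with median centring, and with quantile normalization Jag2 was lower (-0.36, adjusted p 0.0258).

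Among 32 tested Notch target genes 4 rose and 1 fell, 12.5% and 3.12% against the 11% and 6.31% of all probe sets, and the median difference was 0.16 against 0.050 for all probe sets. With quantile normalization 3 were higher and 3 lower, with a median of -0.026. The clearest change was in Hey1, a repressor of the hairy family that Notch induces in endothelium. Hey1 was at 6.54, 6.76, 6.50 and 6.47 in NICD arrays and between 5.48 and 5.93 in control arrays, with a median of 5.59. Every NICD array lay above every control array. The rise was 0.92 ± 0.12 (1.89-fold, adjusted p 0.000977), it was 0.66 (adjusted p 0.00481) with quantile normalization, and it passed under the 14 alternative settings of the processing other than a 2-fold limit.

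Efnb2, the transmembrane ligand ephrin-B2 that marks arterial endothelium, was at 6.05, 5.89, 6.13 and 6.03 against 5.18 to 5.53 (median 5.33) in control arrays. The groups did not overlap, and the rise of 0.67 ± 0.11 passed (adjusted p 0.00239; 0.43 and 0.0244 with quantile normalization). Vegfc, a growth factor for lymphatic endothelium, was at 4.08, 3.47, 3.23 and 3.39 against 2.62 to 3.10 (median 2.91). It rose by 0.66 ± 0.18 (adjusted p 0.0242), with NICD replicate 1 the highest array; without that array the difference was 0.48 and did not pass (adjusted p 0.0619). Dtx1, a ubiquitin ligase that binds the Notch intracellular domain, rose by 0.70 ± 0.21 (adjusted p 0.0395), but NICD replicate 3 at 2.52 lay inside the control range of 1.64 to 2.56. The call was lost with quantile normalization (adjusted p 0.0639) and in 7 of the 10 sets that left out 1 array, over which the difference ran from 0.51 to 0.84. Il2ra, the alpha chain of the interleukin-2 receptor, fell by 0.81 ± 0.24 (adjusted p 0.0354), and that call was lost with quantile normalization (adjusted p 0.0510) and in 6 of the 10 left-out sets, where the difference lay between -0.92 and -0.65.

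Other classical targets did not pass. Hey2 was at 3.99, 3.50, 3.96 and 4.27 in NICD arrays and ran from 3.04 to 3.73 in control arrays, a difference of 0.51 ± 0.18 with adjusted p 0.0681. NICD replicate 2 lay inside the control range and the other NICD arrays lay above it. Gata2, a transcription factor of endothelial and blood cells, had a difference of 0.32 ± 0.10 and lay just outside the threshold. The repressors Hes1 and Heyl had differences of -0.26 ± 0.14 and -0.37 ± 0.20, and the feedback inhibitor Nrarp one of 0.14 ± 0.13, with adjusted p of 0.201, 0.225 and 0.516.

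The DNA-binding partner RBPJ recognises TGGGAA, most strongly when preceded by G (GTGGGAA). Promoter windows of 300 bases that end just after a transcription start (RefSeq, GRCm38.p6) matched 22 of the 32 tested targets, with 26 windows. They were searched for both motifs on either strand, and every match of the longer motif also counts for the shorter. The shorter was present in 25.6% of all 32851 windows and in 8 of the 26 windows of tested Notch targets, and the longer in 6.38% of all windows and in 5 of the 26. Hey1 was not among the 22 genes. The windows of Efnb2, Vegfc and Dtx1, 3 of the targets that rose, held neither. Hey2 and Hes5 each held GTGGGAA on both strands, and they are shown because their windows carry the letters while their levels did not pass. The capitals mark TGGGAA or, for the other strand, TTCCCA, in chr10:30842734-30843033 (minus strand) for Hey2 and chr4:154960673-154960972 (plus strand) for Hes5.
Hey2: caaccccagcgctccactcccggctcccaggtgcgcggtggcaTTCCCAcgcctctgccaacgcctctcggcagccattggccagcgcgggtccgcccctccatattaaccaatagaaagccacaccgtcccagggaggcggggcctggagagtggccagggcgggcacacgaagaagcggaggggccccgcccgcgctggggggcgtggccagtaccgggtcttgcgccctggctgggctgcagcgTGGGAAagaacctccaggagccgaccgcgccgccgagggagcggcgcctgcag
Hes5: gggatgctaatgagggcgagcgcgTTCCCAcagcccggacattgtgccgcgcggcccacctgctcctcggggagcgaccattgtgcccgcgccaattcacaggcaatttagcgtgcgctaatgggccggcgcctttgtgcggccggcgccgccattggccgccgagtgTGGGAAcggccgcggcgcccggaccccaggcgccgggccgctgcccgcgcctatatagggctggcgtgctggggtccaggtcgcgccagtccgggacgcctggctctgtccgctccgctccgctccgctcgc
Hes5 differed by 0.32 ± 0.20 (adjusted p 0.285), from a control mean under the background limit, which was set as the 95th percentile of olfactory, vomeronasal and taste receptor probe sets. These matches describe letters in a window and not binding.

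Of 26 tested genes of Notch processing and nuclear machinery, 6 rose and 1 fell (23.1% and 3.85%), and with quantile normalization 2 rose and 1 fell. Adam17, a membrane protease that can make the first cut in Notch, was at 4.00, 3.55, 3.57 and 3.31 in NICD and 2.78 to 3.06 (median 2.91) in control arrays. The groups did not overlap, and the rise was 0.69 ± 0.13 (adjusted p 0.00606). Aph1b, a subunit of the gamma-secretase that releases the intracellular domain, rose by 0.56 ± 0.16 (adjusted p 0.0303), a call lost in 7 of the 10 left-out sets (adjusted p up to 0.0917). The nuclear cofactors Snw1 and Maml2 rose by 0.49 ± 0.11 and 0.47 ± 0.13, the ubiquitin ligase Itch by 0.51 ± 0.13 and the Notch inhibitor Numb by 0.45 ± 0.13, and none of these 4 passed with quantile normalization. Itch was also lost without NICD replicate 1 (adjusted p 0.0621), Maml2 in 3 and Numb in 7 of the 10 left-out sets (adjusted p up to 0.0805 and 0.107). Spen, a corepressor that acts with RBPJ, fell by 0.35 ± 0.11 (adjusted p 0.0411), a call lost in 9 of the 10 left-out sets (adjusted p up to 0.112).

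**Figure D2:**
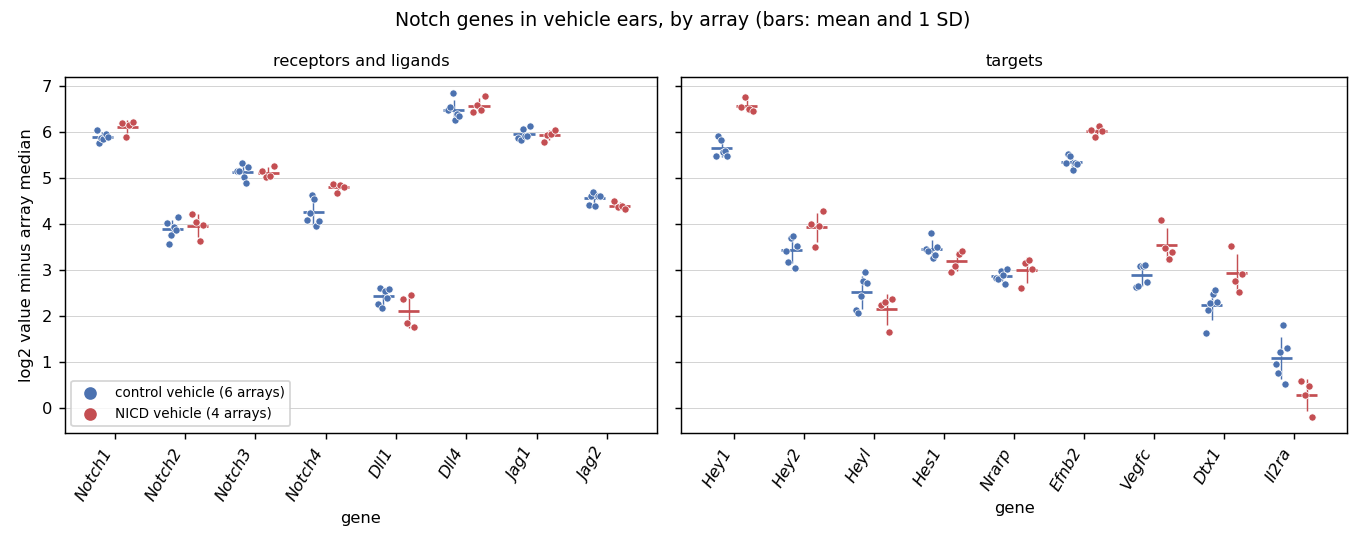
Level of Notch receptors, ligands and targets (y axis, log2 value minus array median; x axis, genes) in each of the 6 control (blue) and 4 NICD (red) vehicle arrays, with the mean and 1 SD as bars. Hey1, Efnb2, Vegfc and Notch4 have all NICD arrays above all control arrays, and Notch1, Dll4, Jag1 and Hes1 overlap.

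Of 33 tested arterial genes, 12 rose and 0 fell (36.4% against 11% of all probe sets), with a median difference of 0.35, and with quantile normalization 9 rose and 0 fell, with a median of 0.16. Besides the members already described, Igfbp3, a binding protein for insulin-like growth factors, was at 6.67, 6.50, 6.19 and 6.42 in NICD and 4.43 to 4.96 (median 4.56) in control arrays, a rise of 1.81 ± 0.14 (3.51-fold, adjusted p 2.83e-05). Stmn2, a microtubule regulator, was at 5.55, 5.02, 4.93 and 4.74 against 3.13 to 3.55 (median 3.30), a rise of 1.75 ± 0.16 (3.36-fold, adjusted p 0.000128). For both genes the groups lay far apart compared with the spread inside either group.

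The netrin receptor Unc5b, a guidance receptor of arterial and tip cells, was at 5.06, 4.70, 3.94 and 4.84 in NICD arrays, and NICD replicate 3 only just exceeded the highest control array at 3.92. It rose by 1.22 ± 0.23 (adjusted p 0.00506). Cxcr4, the receptor for the chemokine CXCL12, was at 5.77, 5.95, 5.50 and 6.02 against 3.89 to 5.83 (median 4.54). Control replicate 3 reached the NICD range, the rise was 1.15 ± 0.29 (adjusted p 0.0212), and it was lost without NICD replicate 2 or 4 (adjusted p up to 0.0589; difference 0.99 to 1.38 over all left-out arrays). Sema3g, an arterial semaphorin, rose by 1.02 ± 0.13 (adjusted p 0.000709), Depp1 by 0.84 ± 0.19, and the hypoxia-inducible factor Epas1 by 0.46 ± 0.10, the last only with centring (quantile 0.12, adjusted p 0.409). Edn1, the vasoconstrictor endothelin, rose by 0.54 ± 0.14 (adjusted p 0.0219), a call lost with quantile normalization (adjusted p 0.0698) and without NICD replicate 2 or 4 (adjusted p up to 0.0622).

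Lymphatic endothelial markers had the largest share of genes higher among the lists with at least 14 genes tested. Of 15 tested, 10 rose and 0 fell (66.7% against 11% of all probe sets) and the median difference was 0.82. With quantile normalization 8 rose and 1 fell, with a median of 0.74, and the one lower was Gja1, a connexin that other endothelium also expresses. Reln, the secreted protein reelin, was at 5.97, 5.09, 4.41 and 5.34 in NICD and 2.52 to 3.67 (median 3.10) in control arrays, a rise of 2.09 ± 0.27 (4.25-fold, adjusted p 0.000842). Mmrn1, a matrix protein of lymphatic endothelium and platelets, was at 7.70, 6.97, 5.79 and 6.88 against 3.65 to 5.26 (median 5.04), a rise of 2.04 ± 0.37 (adjusted p 0.00447). Lyve1, the hyaluronan receptor of lymphatic capillaries, was at 7.20, 6.90, 6.09 and 7.01 against 4.33 to 5.57 (median 5.28), a rise of 1.68 ± 0.26 (adjusted p 0.00229). In all 3 genes NICD replicate 1 was the highest array, NICD replicate 3 the lowest NICD array, and no control array reached it.

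Prox1, the transcription factor that specifies lymphatic endothelium, was at 3.55, 3.21, 2.50 and 3.19 against 2.02 to 2.66 (median 2.31). NICD replicate 3 lay inside the control range, and the rise of 0.79 ± 0.19 passed (adjusted p 0.0144; 0.68 and 0.0203 with quantile normalization). Flt4, the receptor for VEGF-C, rose by 1.31 ± 0.26 (adjusted p 0.00699), the membrane mucin Pdpn by 1.23 ± 0.23, Fgl2 by 1.18 ± 0.22 and Sema3d by 1.16 ± 0.20. Stab1 and Thy1 rose by 0.58 ± 0.15 and 0.82 ± 0.24, and neither passed with quantile normalization (adjusted p 0.0657 and 0.0847). Stab1 was also lost without NICD replicate 1 or 2 (adjusted p up to 0.0619) and Thy1 in 7 of the 10 left-out sets. The summed level of the list was 7.29 to 8.05 in control and 8.21 to 9.42 in NICD arrays. The CD31 sort takes blood and lymphatic endothelial cells together, and in sorted bulk RNA a larger share of one cell type and more RNA of these genes per cell cannot be told apart. Without control replicates 1, 2, 3 and 5, which were low for the H2-Q5 and H2-T23 genes, 2 of the lymphatic markers passed with only 2 control arrays left, and with the replicate numbers as a block 6 did.

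**Figure D3:**
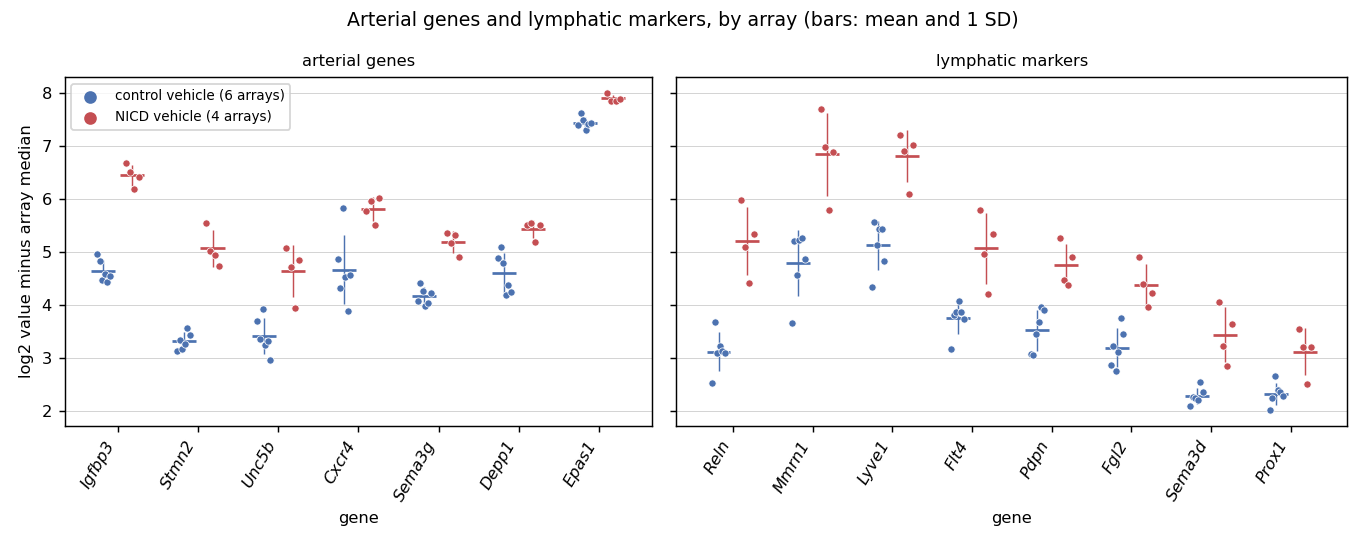
Level of 7 arterial genes and 8 lymphatic markers (y axis, log2 value minus array median) in each control (blue) and NICD (red) vehicle array, with the mean and 1 SD as bars. All genes shown except Cxcr4 and Prox1 have every NICD array above every control array, and the NICD arrays spread more for the lymphatic markers than for Igfbp3 or Epas1.

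A further pair of vessel genes, Npr3 and Kcnn3, were among the largest changes. Npr3, the clearance receptor that removes natriuretic peptides, was at 6.12, 5.96, 5.26 and 5.90 in NICD and 3.19 to 3.48 (median 3.27) in control arrays. The rise was 2.50 ± 0.16 (5.67-fold, adjusted p 5.24e-06). Kcnn3, a small-conductance calcium-activated potassium channel, was at 4.60, 4.21, 3.98 and 3.88 against 1.53 to 2.59 (median 1.98), a rise of 2.21 ± 0.21 (4.62-fold, adjusted p 0.000162). Neither gene overlapped between groups, and both passed under the same 14 settings. The list of vessel tone and coagulation genes as a whole had 4 of 33 higher and 0 lower (12.1% against 11%), and with quantile normalization 2 were higher and 6 lower, among them the thrombin-binding receptor Thbd and the angiotensin-converting enzyme Ace.

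Capillary genes, with 5 of 26 higher (19.2%), depended on the scaling. Besides Npr3 the members that rose were the fatty acid binding proteins Fabp5 (0.76 ± 0.16) and Fabp4 (0.38 ± 0.11), caveolin Cav1 (0.55 ± 0.10) and the carbonic anhydrase Car4 (0.65 ± 0.20), and only Npr3 passed with quantile normalization. Fabp4 was also lost in 7 and Car4 in 8 of the 10 left-out sets (adjusted p up to 0.0984 and 0.125). A second Fabp5 probe set gave 0.032 (adjusted p 0.941) and another gave 0.80 (adjusted p 0.00799). Of 25 tip cell and sprouting genes 7 rose and 1 fell (28% and 4% against 11% and 6.31% of all probe sets), and 5 rose and 4 fell with quantile normalization (20% and 16% against 6.21% and 8.52%). Esm1, a proteoglycan of tip cells, rose by 1.34 ± 0.32 (adjusted p 0.0144). Unc5b, Cxcr4, Vegfc and Flt4, already counted in lists above, were also among the tip cell genes that rose. Venous and postcapillary genes had 2 of 22 higher and 2 lower (9.09% each), and 1 higher and 2 lower with quantile normalization. The venous members that fell were Slco2a1, a prostaglandin transporter, by 0.44 ± 0.13 and Tll1 by 0.52 ± 0.14, while the ones that rose were Flt4 and elastin (Eln, 0.55 ± 0.17). Slco2a1 was lost in 7, Tll1 in 4 and Eln in 8 of the 10 left-out sets (adjusted p up to 0.118, 0.0679 and 0.115), and Eln also with quantile normalization (adjusted p 0.155).

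With median centring, more chemokines and cytokines fell than members of any other list. Of 34 tested, 7 fell and 5 rose, 20.6% and 14.7% against 6.31% and 11% of all probe sets, and the median difference was -0.059 against 0.050. With quantile normalization 8 fell and 4 rose (23.5% and 11.8%), and the immediate early and dissociation genes had more lower, 10 of 32 (31.2%). Several of the members that fell lie near the array median. There falls were more common with centring (328 of 2996 probe sets between 0 and 1 unit), so 6.31% is too low a baseline for them. Csf3, the granulocyte colony-stimulating factor, was at 1.32, 3.24, 2.33 and 2.17 in NICD and 3.31 to 4.15 (median 3.93) in control arrays. It fell by 1.54 ± 0.30 (adjusted p 0.00588), with NICD replicate 2 just below the lowest control array. Tnf, the cytokine tumour necrosis factor, was at -0.50, -0.59, 0.14 and -0.048 against 0.57 to 1.32 (median 1.08). Its NICD mean lay under the background limit, so the fall of 1.29 ± 0.18 (adjusted p 0.00145) is at least 2.21-fold when the limit is set in its place. Tnfsf9, a cytokine of the same family that costimulates T cells, was at 1.90, 2.77, 2.66 and 2.39 against 3.64 to 4.15 (median 3.79) and fell by 1.40 ± 0.17 (adjusted p 0.000601).

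The neutrophil attractants Cxcl1 and Cxcl2 fell by 0.63 ± 0.15 and 0.92 ± 0.24 (adjusted p 0.0169 and 0.0212), the interferon-induced chemokine Cxcl10 by 1.03 ± 0.25 (adjusted p 0.0149), Ccl20 by 0.95 ± 0.23 and Ccl4 by 0.73 ± 0.20. All of these but Cxcl1 lay low, with control means of 0.64 to 1.18, and the NICD means of Cxcl2 and Cxcl10 were under the background limit, which gives at least 1.78-fold and 2.02-fold. Cxcl2 was lost without NICD replicate 1, 3 or 4 (adjusted p up to 0.0593) and Ccl4 without NICD replicate 2 or 3 (adjusted p up to 0.0672). In Cxcl10, control replicate 3 at -0.047 was inside the NICD range, whereas for Cxcl1 and Ccl20 no arrays overlapped. The scavenging receptors went the other way. Ackr2, which binds and degrades inflammatory CC chemokines and is known from lymphatic endothelium, was at 4.01, 3.18, 2.51 and 3.68 against 1.07 to 2.00 (median 1.74), a rise of 1.69 ± 0.28 (adjusted p 0.00278). As with the lymphatic markers, NICD replicate 1 was highest and NICD replicate 3 lowest of the NICD arrays. Ackr3, which takes up CXCL12, rose by 1.11 ± 0.18 (adjusted p 0.00277), Il7, a survival factor for lymphocytes, by 0.94 ± 0.24, Cxcl14 by 0.70 ± 0.22 and Ccl27a by 0.60 ± 0.18. Cxcl14 did not pass with quantile normalization (adjusted p 0.0749). Cxcl14 and Ccl27a were each lost in 7 of the 10 left-out sets (adjusted p up to 0.123 and 0.104) and Il7 without NICD replicate 4 (adjusted p 0.0524).

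Of 21 antigen presentation genes 3 rose and 0 fell (14.3%), and the largest rise of any named gene was in a related class I gene, H2-Q5. H2-Q5 was at 3.88, 4.90, 5.22 and 4.12 in NICD arrays. Among control arrays replicates 4 and 6 were at 4.16 and 4.21 and replicates 1, 2, 3 and 5 between -1.42 and -0.052, so the controls fell into a high and a low set and the high set overlapped the NICD arrays. The difference of 3.46 ± 1.04 (adjusted p 0.0395) did not pass with quantile normalization (adjusted p 0.0569) or in 8 of the 10 left-out sets, where it ran from 2.96 to 4.08. H2-T23, a nonclassical class I gene, split the same way, at 2.79 and 3.47 in control replicates 4 and 6 and 0.33 to 1.08 in the other control arrays, against 3.29 to 3.83 in NICD arrays. Its rise of 2.02 ± 0.55 (adjusted p 0.0264) was lost when any of the 4 NICD arrays was left out (adjusted p up to 0.0694). H2-Aa, a chain of MHC class II, was at 3.49, 4.30, 4.65 and 2.82 against -0.19 to 3.25 (median 1.68), a rise of 2.20 ± 0.55 (adjusted p 0.0193), which was lost without NICD replicate 2 or 3 (adjusted p up to 0.0577). H2-Q4 rose by 0.81 (adjusted p 0.0187), lost without NICD replicate 1 or 2 (adjusted p up to 0.0584). H2 genes are close paralogs and vary between strains, so the probe sets may not separate them: a second H2-Q5 probe set gave 0.91 (adjusted p 0.0148) and a second H2-Q4 probe set -0.38 (adjusted p 0.303). Without control replicates 1, 2, 3 and 5, a set of arrays left out after the values were seen, 270 probe sets were higher and 210 lower with only 2 controls remaining.

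**Figure D4:**
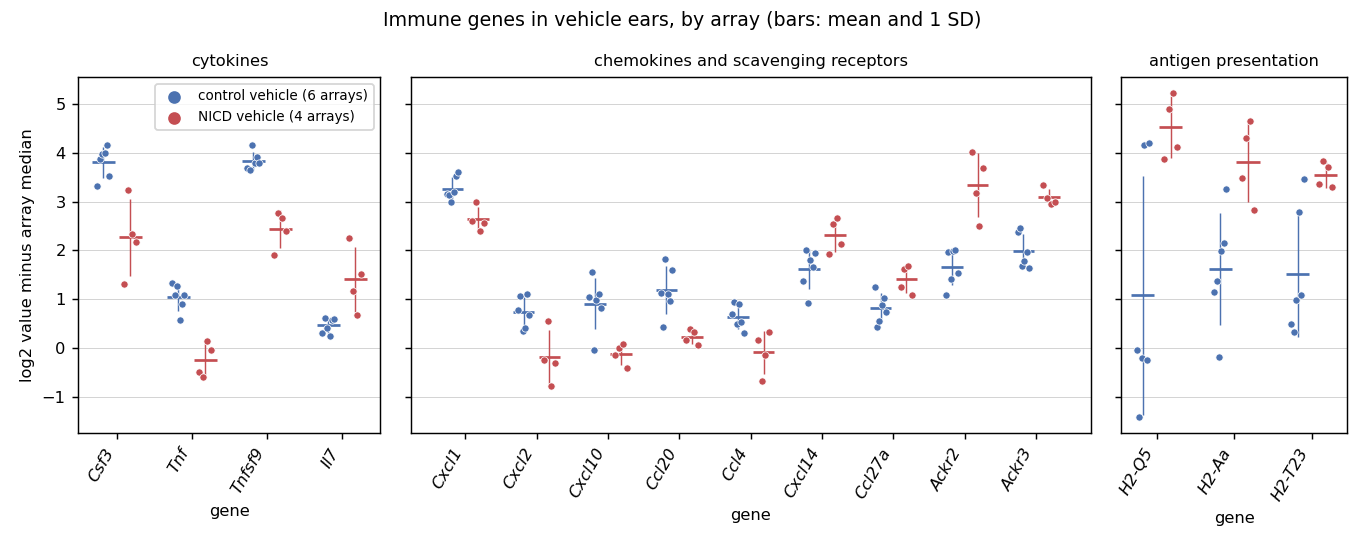
Level of cytokines, chemokines, scavenging receptors and antigen presentation genes (y axis, log2 value minus array median) in each control (blue) and NICD (red) vehicle array, with the mean and 1 SD as bars. Csf3, Tnf and Tnfsf9 have every NICD array below every control array, Ackr2 and Ackr3 every NICD array above, and the control arrays of H2-Q5 form a high and a low set.

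Among 39 interferon response genes 7 rose and 1 fell (17.9% and 2.56%), and 3 rose and 3 fell with quantile normalization. Isg15, a ubiquitin-like protein induced by interferon, rose by 1.04 ± 0.19 (adjusted p 0.00473; 0.83 and adjusted p 0.0156 with quantile normalization). Ifit1 and Bst2 rose by 0.93 ± 0.23 and 0.83 ± 0.18, and neither passed with quantile normalization (adjusted p 0.0583 and 0.0593). Ifit1 was also lost without NICD replicate 2 or 3 (adjusted p up to 0.0621). Ifitm1 fell by 0.84 ± 0.22, at least 1.63-fold since its NICD mean was under the background limit, and was lost without NICD replicate 1, 2 or 3 (adjusted p up to 0.0607). Among 19 leukocyte adhesion molecules 4 rose and 1 fell (21.1% and 5.26% against 11% and 6.31%), and 0 rose and 2 fell with quantile normalization. Those that rose with centring were Jam2 (0.59 ± 0.098), Stab1, Mcam and Pecam1. Pecam1 was lost in 7 of the 10 left-out sets (adjusted p up to 0.0796). Glycam1, a mucin ligand of L-selectin, fell by 0.79 ± 0.18 (adjusted p 0.0116) to an NICD mean under the background limit, which gives at least 1.67-fold.

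Of 49 basement membrane and matrix genes 12 rose and 3 fell, 24.5% and 6.12%, and with quantile normalization 4 rose and 4 fell. Col18a1, the collagen chain that holds endostatin, rose by 1.25 ± 0.16 (adjusted p 0.000946) and the collagen-binding integrin chain Itga1 by 0.84 ± 0.13 (adjusted p 0.00230), and both also passed with quantile normalization. The members that fell were proteoglycan-cutting proteases of 1 family: Adamts4 by 0.83 ± 0.19, Adamts9 by 0.67 ± 0.14 and Adamts1 by 0.61 ± 0.15, and each of the 3 passed with quantile normalization too. Of 30 angiopoietin and TGF-beta family genes 5 rose and 0 fell (16.7%), among them the ligand Bmp6 by 0.95 ± 0.19 and the receptor Tgfbr2 by 0.72 ± 0.14, the 2 that also passed with quantile normalization. Mesenchymal transition genes had 5 of 19 higher (26.3% against 11%), led by the matrix protein Postn (1.09 ± 0.27), and 0 with quantile normalization (Postn adjusted p 0.0513). Postn was lost without NICD replicate 1 (difference 0.82, adjusted p 0.0557). The transcription factor Twist1 fell by 0.58 ± 0.17 (adjusted p 0.0379), and this call was lost in 8 of the 10 left-out sets (adjusted p up to 0.113).

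Genes of endothelial identity were present in both groups. All 19 pan-endothelial markers passed the filter. With centring 6 rose and 0 fell (31.6% higher against 11% of all probe sets), with a median difference of 0.20. With quantile normalization 1 rose and 1 fell (5.26% each against 6.21% and 8.52%), with a median of -0.051. S1pr1, the sphingosine-1-phosphate receptor that holds endothelial junctions together, rose by 0.79 ± 0.11 (adjusted p 0.00146) and was the one higher under both scalings. Pecam1, which encodes the CD31 used in the sort, rose by 0.33 with centring and was -0.041 with quantile normalization. Junction genes followed that pattern, with 6 of 23 higher with centring (26.1% against 11%) and 0 with quantile normalization (against 6.21%). Of 34 endothelial transcription factors 5 rose and 2 fell (14.7% and 5.88% against 11% and 6.31%), and with quantile normalization the balance turned, with 2 higher and 5 lower (5.88% and 14.7% against 6.21% and 8.52%). Erg, an ETS factor of all endothelium, rose by 0.59 ± 0.13 (adjusted p 0.0132) and did not pass with quantile normalization (adjusted p 0.0555), and Gata3 and Hhex fell by 0.55 ± 0.15 and 0.47 ± 0.13. Gata3 was lost in 6 and Hhex in 4 of the 10 left-out sets (adjusted p up to 0.0876 and 0.0896).

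The plot of list shares sets both scalings side by side. The lists share genes, so their shares are not separate results. The tip cell and arterial lists have 5 genes in common, among them Unc5b, Cxcr4 and Vegfc. The arterial list and the Notch targets also share 5, and Flt4 is in the tip cell, lymphatic and venous lists. Among lists with at least 14 genes tested, the share higher was furthest above that of all probe sets with both scalings for lymphatic markers (66.7% with centring and 53.3% with quantile normalization), arterial genes (36.4% and 27.3%) and tip cell and sprouting genes (28% and 20%). It was above that of all probe sets by less, with both scalings, for Notch processing genes, Notch targets, angiopoietin and TGF-beta family, antigen presentation, interferon response, matrix, chemokine and keratinocyte genes. Some of these shares lay near it. Notch targets had 12.5% with centring against 11%, and keratinocyte genes 7.14% with quantile normalization against 6.21%. The share lower was furthest above that of all probe sets with both scalings for chemokines and cytokines (20.6% and 23.5%). Cell cycle genes (8.7% and 13%) and venous genes (2 of 22 or 9.09% with either scaling) lay nearer to it (6.31% and 8.52%). With the replicate numbers as a fixed block 3 chemokines and cytokines, 0 cell cycle genes and 0 venous genes were lower. Pan-endothelial (31.6% and 5.26%), junction, adhesion, mesenchymal transition and capillary genes had raised shares of higher genes with median centring and shares under the background with quantile normalization.

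**Figure D5:**
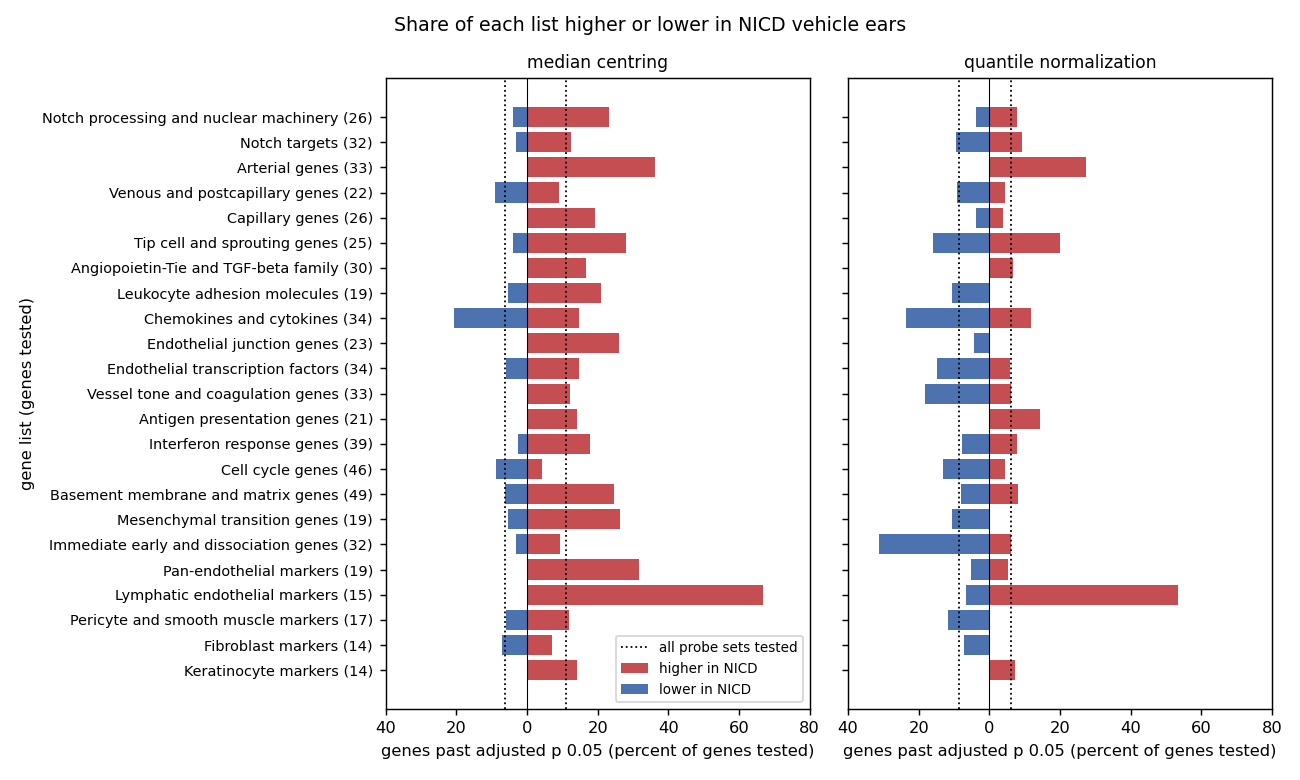
Percent of the tested genes of each list that were higher (red, to the right) or lower (blue, to the left) in NICD vehicle ears at adjusted p 0.05, with median centring (left panel) and quantile normalization (right panel), and dotted lines at the share of all probe sets tested. Lymphatic markers (66.7% higher with centring) and arterial genes (36.4%) stand to the right of the line in both panels.

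Several of the largest differences lay outside vascular lists. Dad1, a subunit of the complex that adds sugars to proteins in the endoplasmic reticulum, was at 6.23, 6.23, 6.10 and 6.05 in NICD and 3.61 to 4.34 (median 3.93) in control arrays, a rise of 2.19 ± 0.14 (4.57-fold, adjusted p 5.48e-06). Ndufb10, a subunit of respiratory complex I, was at 5.30, 5.49, 5.35 and 5.54 against 3.16 to 3.68 (median 3.43), a rise of 1.97 ± 0.12 (adjusted p 5.24e-06). Wasl, a regulator of actin branching, rose by 1.79 ± 0.14 (adjusted p 2.83e-05), and AA388235 by 1.81 ± 0.21 from a control mean under the background limit, which makes it at least 3.10-fold. The 4 genes had every NICD array above every control array.

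Of the 12 largest falls, all had every NICD array below every control array, and besides Csf3, Tnf and Tnfsf9 most had low levels. Frzb, a secreted Wnt antagonist, fell by 1.42 ± 0.22 (adjusted p 0.00195), and Bag2, a chaperone regulator, by 1.34 ± 0.16 (adjusted p 0.000601), both to NICD means under the background limit, which gives at least 1.89-fold and 1.83-fold. Cyp2d40 fell by 1.60 ± 0.23, Zbed5 by 1.41 ± 0.24, Caprin2 by 1.31 ± 0.17, Prss22 by 1.31 ± 0.19 and the receptor pseudogene Olfr1077-ps1 by 1.36 ± 0.26. Cyp2f2 was lower by 1.59 ± 0.18 in the probe set of higher level, at least 2.84-fold since its NICD mean was under the background limit, but its other probe set rose by 0.82 (adjusted p 0.00287), so its direction is uncertain. The probe set that stands for Mir100hg fell by 1.32 ± 0.20, and its other 2 probe sets gave 0.23 and -0.30 and did not pass.

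Cell cycle genes were mostly not past the threshold, with 2 of 46 higher and 4 lower (4.35% and 8.7% against 11% and 6.31%), and 2 higher and 6 lower with quantile normalization. The G1 kinase Cdk6 and its cyclin Ccnd3 rose by 0.61 ± 0.13 and 0.60 ± 0.12, and E2f1, which drives entry into S phase, fell by 0.57 ± 0.16, a call lost in 4 of the 10 left-out sets (adjusted p up to 0.0837). Among 32 immediate early and dissociation genes, which respond to tissue digestion, 3 rose and 1 fell (9.38% and 3.12% against 11% and 6.31%). The heat shock gene Hspa1a, which has the near-identical copy Hspa1b, rose by 1.46 ± 0.090 (adjusted p 5.24e-06) and the phosphatase Dusp1 by 1.33 ± 0.23 (adjusted p 0.00337), while Ier3 fell by 0.61 ± 0.13. With quantile normalization 2 were higher and 10 lower (6.25% and 31.2% against 6.21% and 8.52%), the latter including Nr4a1, Atf3 and Jun.

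Markers of other cell types were measured beside these results. Of 13 neutrophil markers 10 lay under the background limit in both groups, and of 11 T and NK cell markers with a probe set 9 did, Cd3e, Cd4 and Cd8a among them. The summed level was 2.97 to 3.24 in control and 3.29 to 3.48 in NICD arrays for the neutrophil list and 3.61 to 4.19 against 4.17 to 4.71 for the T and NK cell list, which includes the Thy1 described above. The floor itself was higher in NICD arrays. The receptor probe sets that set the background limit had a median of -1.61 in control and -1.10 in NICD arrays. With most members under the limit, these 2 sums cannot be read as a difference in leukocyte RNA. Of 17 macrophage and dendritic cell markers 7 lay under the limit, with summed levels of 4.72 to 5.42 and 4.50 to 4.97, Ptprc (the CD45 of the sort gate) and Adgre1 among them. In the same list Mrc1, which lymphatic endothelium also expresses, rose by 0.89, at least 1.79-fold since its control mean was under the background limit, and Cd209a fell by 1.10. The fall of Cd209a was lost in 7 of the 10 left-out sets and the rise of Mrc1 without NICD replicate 1 (adjusted p 0.0563). Keratinocyte markers had 2 of 14 higher (14.3% against 11%), Krt1 by 1.73 ± 0.36 (adjusted p 0.00811) and Krt15 by 0.58. Krt15 was lost with quantile normalization (adjusted p 0.166) and in 6 of the 10 left-out sets. The summed keratinocyte level was 7.80 to 8.74 in control and 8.30 to 8.94 in NICD arrays. Pericyte and smooth muscle markers had 2 of 17 higher and 1 lower (11.8% and 5.88% against 11% and 6.31% of all probe sets). With quantile normalization 0 were higher and 2 lower (0% and 11.8% against 6.21% and 8.52%). Their summed levels were 9.40 to 9.66 and 9.47 to 9.72. Fibroblast markers had 1 of 14 higher (Serping1) and 1 lower (Pdgfra), 7.14% each against 11% and 6.31%. Serping1 was lost with quantile normalization (adjusted p 0.269) and in 9 of the 10 left-out sets (adjusted p up to 0.119). Skeletal muscle markers had 0 of 7 past the threshold, with a median difference of -0.997, and Acta1 was at 5.22 and 4.29 in control replicates 1 and 2 and 3.28 in NICD replicate 2 against 0.51 to 1.74 in the other arrays. Without control replicates 1 and 2 the arterial list had 8 genes higher, the lymphatic list 9 and the chemokine and cytokine list 6 lower. The part of these cells in the differences above was not tested.

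The same genotype comparison in DNFB-treated ears shares no array with the vehicle comparison, and its groups differed in the same sex marker and in scale. The titles carry the same replicate numbers for vehicle and DNFB arrays of a genotype. Whether arrays of the same number come from the same mouse is not given, so the vehicle and DNFB comparisons may not be independent. The test of their difference below used no pairing. Xist was at -1.34 to -0.88 in the 6 control and 4.95 to 5.24 in the 4 NICD DNFB arrays, and the array medians were 3.88 to 3.96 and 3.52 to 3.57. In DNFB ears 2931 probe sets were higher in NICD and 1085 lower (22% and 8.15%), in a fit of all 20 arrays to the probe sets kept by the vehicle arrays. In vehicle ears that fit gave 1664 higher and 921 lower, whereas the 1462 and 840 come from the vehicle arrays alone. Of the 1462 probe sets higher in vehicle ears 74.5% were also higher in DNFB ears (1089, or 37.2% of those higher there), and of the 840 lower 49.5% were also lower (416, or 38.3%), while 4 higher and 4 lower in vehicle ears had the opposite call. Hey1 was higher by 0.92 in vehicle and by 1.47 ± 0.11 in DNFB ears, Efnb2 by 0.67 and 1.23 ± 0.11, Npr3 by 2.50 and 2.77 ± 0.18, and Lyve1 by 1.68 and 1.38 ± 0.25. Csf3 differed by -1.54 in vehicle and -0.65 ± 0.27 in DNFB ears, and Tnf by -1.29 and -0.021 ± 0.39. The test of the difference itself passed for 2 of 13318 probe sets (0.0150%), and 1508 had an unadjusted p under 0.05 (11.3%). The 2 that passed were Mpp7, a scaffold protein of cell junctions, at 0.82 in vehicle and -0.62 in DNFB ears (adjusted p 0.0227), and Rbp7, a retinol binding protein of capillary and arterial endothelium, at 0.23 and 2.37 (adjusted p 0.0248). For Csf3 and Tnf the differences between the effects had adjusted p of 0.388 and 0.398, and for Hey1 and Efnb2 0.194 and 0.166, so none of those 4 was shown to differ between vehicle and DNFB ears.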

How the data were processed

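The study hybridised RNA of CD31+CD45-Ter119- cells from mouse ears to 20 Affymetrix gene arrays, and the 10 vehicle arrays enter the comparison. The deposited values are log2 expression per probe set, made by the authors with robust multi-array average (RMA) in Affymetrix Expression Console per the submitters' processing notes, from 1 ng of total RNA amplified with the WT Pico kit per the labels' protocols; versions, options and the joint or separate normalization of the arrays are not given in the sources used here. The number of arrays limits the precision.

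From these values each array's median was subtracted. Of 41345 probe sets, 23521 had 1 gene symbol, 1814 several and 16010 none. Kept were those with 1 symbol, outside the X and Y chromosomes (991 left out), with a value above the array median on at least 4 of the 10 arrays. Symbols from the array annotation were updated through Entrez numbers (23328), symbols (149) or synonyms (43), and 1 had no match. Group means over the 10 arrays were compared with limma 3.58.1 in R 4.3.3 (lmFit, eBayes), with Benjamini-Hochberg adjustment at 0.05. The genotype effects in vehicle and DNFB ears were compared by an interaction term fitted to all 20 arrays. The procedure was tested on simulated data. Python 3.11.15 with matplotlib 3.10.9 drew the figures.

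The groups, the 34 gene lists and the naming rule were chosen with earlier results of these data known. Named genes are Notch1; among genes past the threshold, the 12 that rose most and the 12 that fell most with the same sign without centring and with quantile normalization, without predicted, Riken and small RNA genes; all tested Notch receptors, ligands and targets; and up to 4 called members of each other list. List members beyond these, such as Sema3g, Depp1, Epas1, Pdpn, Fgl2, Sema3d, Cxcl1, Cxcl2, Cxcl10, Ccl20, Adamts1 and Adamts9, and Xist and Eif2s3y, were named after their values were seen. The probe set of highest mean stands for a gene. Background limits, the 95th percentile of 1440 olfactory, vomeronasal and taste receptor probe sets, were 0.028 in control and -0.11 in NICD arrays. Alternatives were no centring, quantile normalization, cyclic loess, scaling to a common spread, other filters, variance options, replicate blocks, a 2-fold limit and each array left out; 2 sets of control arrays were left out after the data were seen. Deviations of same-numbered control and NICD vehicle arrays correlated at -0.18 to 0.0096. No pairing of the vehicle arrays of the genotypes by number was seen, but so few correlations cannot exclude one. Pairing between vehicle and DNFB arrays was not checked.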

Additional observations from a re-analysis of the deposited data

Results flagged for a closer look

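Among the named genes, 9 of 266 gene and group combinations held 1 array far from the other arrays of its group by Dixon's criterion, which chance gives for about 1 in 20 groups. In the control group these were replicate 1 for Dtx3 (1.73, other arrays 2.32 to 2.59) and Flt4 (3.15, others 3.74 to 4.07), replicate 2 for Caprin2 (1.82, others 1.31 to 1.46) and replicate 3 for Kdr (7.32, others 6.83 to 6.95). In the NICD group replicate 1 stood apart for Krt1 (3.55, others 4.23 to 4.29), Thy1 (4.28, others 3.52 to 3.60), Cd209a (0.885, others 2.39 to 2.70) and the cadherin Cdh5 (8.46, others 8.19 to 8.23), and replicate 2 for Hes5 (0.123, others 0.27 to 0.30).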

How the results depend on the processing

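Of 98 genes named by the rule that passed, 62 kept the call without centring, 65 with quantile normalization, 70 with cyclic loess, 38 with the replicate number as a fixed block and between 67 and 87 when 1 array was left out. The counts of probe sets higher and lower in NICD (1462 and 840) became 388 and 4404 without centring and 248 and 155 with the replicate number as a fixed block, and 144 and 74 at a 2-fold limit. Those higher became 827 with quantile normalization, 8240 with scaling to a common spread and 4305 without a filter. Notch genes higher and lower (11 and 2 of 67) became 3 and 21 without centring, 5 and 5 with quantile normalization, 6 and 4 with cyclic loess, 57 and 1 with scaling to a common spread, 1 and 0 with the fixed block and 0 and 0 at 2-fold; those lower became 1 with a random block and 0 with all probe sets. The count for the difference between the DNFB and vehicle effects (2) was 1 with quantile normalization. Without control replicates 1, 2, 3 and 5 the counts were 270 and 210, and 2 and 1 Notch genes; without control replicates 1 and 2, 6 Notch genes were higher. With each array left out in turn, 939 to 1449 probe sets were higher and 533 to 829 lower, 5 to 10 Notch genes higher and 0 to 2 lower, and the difference between the effects passed for 0 to 3. Without NICD replicate 1, 2 or 4 the count higher was 939, 960 and 952, and without NICD replicate 2, 3 or 4 the count lower was 557, 533 and 555. Scaling to a common spread reversed Jag2 (1.03), Notch3 (1.35), Jag1 (1.56), Cd34 (1.75), Myc (1.48), Snai2 (1.08), Hes1 (0.61), Cdkn1a (1.99), Pdgfrb (1.65), Tll1 (0.16), Slco2a1 (1.33), Adamts4 (0.90), Twist1 (0.59), Ier3 (0.60), Abcc9 (0.76), Adamts1 (0.95), Adamts9 (0.58), Cxcl1 (0.13) and Spen (0.34), and quantile normalization reversed Pecam1 (-0.041); the cause was not tested. Signal over background limits genes near the array median: 202 of the probe sets lower had an NICD mean, and 127 of those higher a control mean, under the background limit.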

Other observations

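Genes at least 2-fold higher in NICD ears were spread unevenly over the genome, a pattern noticed after the values were seen. Chromosome 17 held 20 of its 694 tested probe sets in that class (2.88%), against 1.08% of all probe sets and 0.377% to 1.63% on the other autosomes. In the gene order of RefSeq (GRCm38.p6), 19 of the 20 lay between Tiam2 and H2-T23, a stretch with 417 tested probe sets (4.56%) that includes the H2 genes, and 1 of 277 (0.361%) lay elsewhere on the chromosome. The ends of the stretch are themselves genes at least 2-fold higher, so these shares follow from the choice of ends and are a description only. Besides the H2 genes, Ndufb10, AA388235, Dusp1 and Hspa1a already described, the stretch held H2-K2, higher by 1.39, the guanine exchange factor Tiam2 (1.07, at least 1.60-fold from a control mean under the background limit), the fibronectin-domain protein Fndc1 (1.22) and the zinc finger genes Zfp944 (1.34) and Zfp763 (1.07). Of these 5, Tiam2, Fndc1, H2-K2, Zfp763 and Zfp944 differed by 0.82, 0.54, 0.74, 0.74 and 0.96 in DNFB ears. Among genes at least 2-fold lower, 4 of the 417 (0.959%) lay in the stretch, against 0.556% of all probe sets. Of the 12 largest rises named above 5 lay on chromosome 17, and of the 12 largest falls 3. The chromosome held 694 of the 13318 probe sets tested.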
